A study of Mus musculus with 6 samples.

Results

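The genes described here are 10 antiviral effectors, modifiers and RNA sensors that interferon switches on: Ifit1, Ifit2, Ifit3, Isg15, Usp18, Rsad2, Oasl2, Oas2, Ifih1 and Dhx58. They were taken by symbol from a table of 40303 mouse gene models, in which each symbol matched 1 model. The table holds messenger RNA levels of 6 tumours grown from CT26, a mouse colon carcinoma line, under the skin of BALB/c mice with the wild-type genotype. Of these mice, 3 received PEGylated glutaminase at 50 IU per kg, an enzyme that degrades circulating glutamine and is coupled to polyethylene glycol. The 3 control mice received the vehicle, phosphate-buffered saline with 10% glycerol, and all 6 mice were injected in the peritoneum every 3 days, 2 times in all, once tumours could be felt. Each tumour gave 1 library from whole tissue, so the levels mix RNA of carcinoma cells and host cells. A lower level in such bulk tissue can come from fewer cells of a type or from less of the RNA per cell, and the data cannot tell these apart.

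Type I interferons bind the receptor formed by Ifnar1 and Ifnar2. Signalling from it assembles ISGF3, a complex of transcription factors that binds a promoter sequence called the interferon-stimulated response element. Interferon gamma acts through a different receptor, and the gene sets that the interferons induce overlap. Ifih1 (MDA5) and Dhx58 (LGP2) recognise double-stranded RNA in the cytosol. The Ifit proteins bind viral RNA, the oligoadenylate synthetases make a signalling molecule when they bind double-stranded RNA, and Rsad2 (viperin) makes a nucleotide analogue that stops viral polymerases. Isg15 is a ubiquitin-like protein that is attached to other proteins. Usp18 removes it and also dampens signalling at the interferon receptor. In tumours these genes are widely read as a sign of interferon exposure, in carcinoma cells as well as in infiltrating immune cells.

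The promoters are shown because the genes are known for sharing this element. Promoter windows from RefSeq on GRCm38.p6, the C57BL/6J assembly, covered 250 bases before to 50 bases after a transcript start and matched 7 of the 10 genes. Oas2, Usp18 and Dhx58 had no entry. The core of the element was searched as GAAANNGAAA on both strands, and it reads TTTCNNTTTC where it lies on the strand opposite the gene. It occurred in the windows of 5 of the 7 genes, and in 3.99% of all 27025 genes with a window. The matched stretches are given 5′ to 3′ on the strand of the gene, with matching bases in capitals.
Isg15, minus strand, chr4:156200855-156200916: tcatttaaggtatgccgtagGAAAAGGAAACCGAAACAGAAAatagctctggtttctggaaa
Ifit1, plus strand, chr19:34640765-34640833: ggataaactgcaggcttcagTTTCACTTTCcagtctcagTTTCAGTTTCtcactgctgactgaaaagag
Ifit3, plus strand, chr19:34583353-34583436: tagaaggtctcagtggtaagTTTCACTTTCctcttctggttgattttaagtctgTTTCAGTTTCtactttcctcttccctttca
Rsad2, minus strand, chr12:26456543-26456592: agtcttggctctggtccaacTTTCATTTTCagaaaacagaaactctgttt
Ifih1, minus strand, chr2:62646206-62646233: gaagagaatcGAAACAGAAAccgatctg
The Isg15 window held 3 overlapping matches, which began 78, 72 and 66 bases before the transcript start. The matches in Ifit1 began 104 and 85 bases before the start, those in Ifit3 156 and 122 bases before it, and the match in Rsad2 120 bases before it. The match in Ifih1 began 32 bases after the start, inside the transcript. The single window of Oasl2 and both windows of Ifit2 held no match, which says only that these letters are not in those windows. A match is a description of the sequence and not evidence of binding.

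Of the 10 genes, 9 were measured well, and all 9 had a lower mean in the PEG-glutaminase tumours, where 50.0% of all 13557 tested genes had a difference below 0. None of them passed the test over all genes (limma, lowest adjusted p = 0.154). The differences ran from -0.96 for Oasl2 to -0.20 for Ifit2 on the log2(value + 1) scale, with a median of -0.76, against -4.97e-05 over all tested genes. This scale understates the change of low genes. By limma, 0 of the 9 genes were called at an adjusted p of 0.05, where 0.0295% of all tested genes were called lower and 0.00738% higher. At an unadjusted p under 0.05 limma found 4 of the 9 lower, against 9.51% of all tested genes. The same count was 6 by edgeR, against 9.74% of all tested genes, and edgeR also called 0. By DESeq2 it was 6, against 8.96% of the genes it tested, and DESeq2 called 3 lower after adjustment, Isg15, Ifit1 and Dhx58, where it called 2.31% of genes lower. Groups of 3 against 3 cannot give an exact permutation p below 0.1.

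In 7 of the 9 genes every PEG-glutaminase tumour lay under every vehicle tumour, where 12.7% of all tested genes showed this. The exceptions were Rsad2 and Oas2. The tumour PEG-glutaminase 2 was the lowest of the 6 libraries for all 9 genes, and it was the lowest for 24.6% of all tested genes. Without that library the 9 differences were again all below 0, where 50.4% of all tested genes were, and their median was -0.37. In that comparison limma called 0 of the 9, and 5 were lower at an unadjusted p under 0.05, where 7.15% of all tested genes were. DESeq2 without that library called Isg15, Ifit1 and Oasl2 lower, where it called 0.981% of genes lower.

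**Figure D1:**
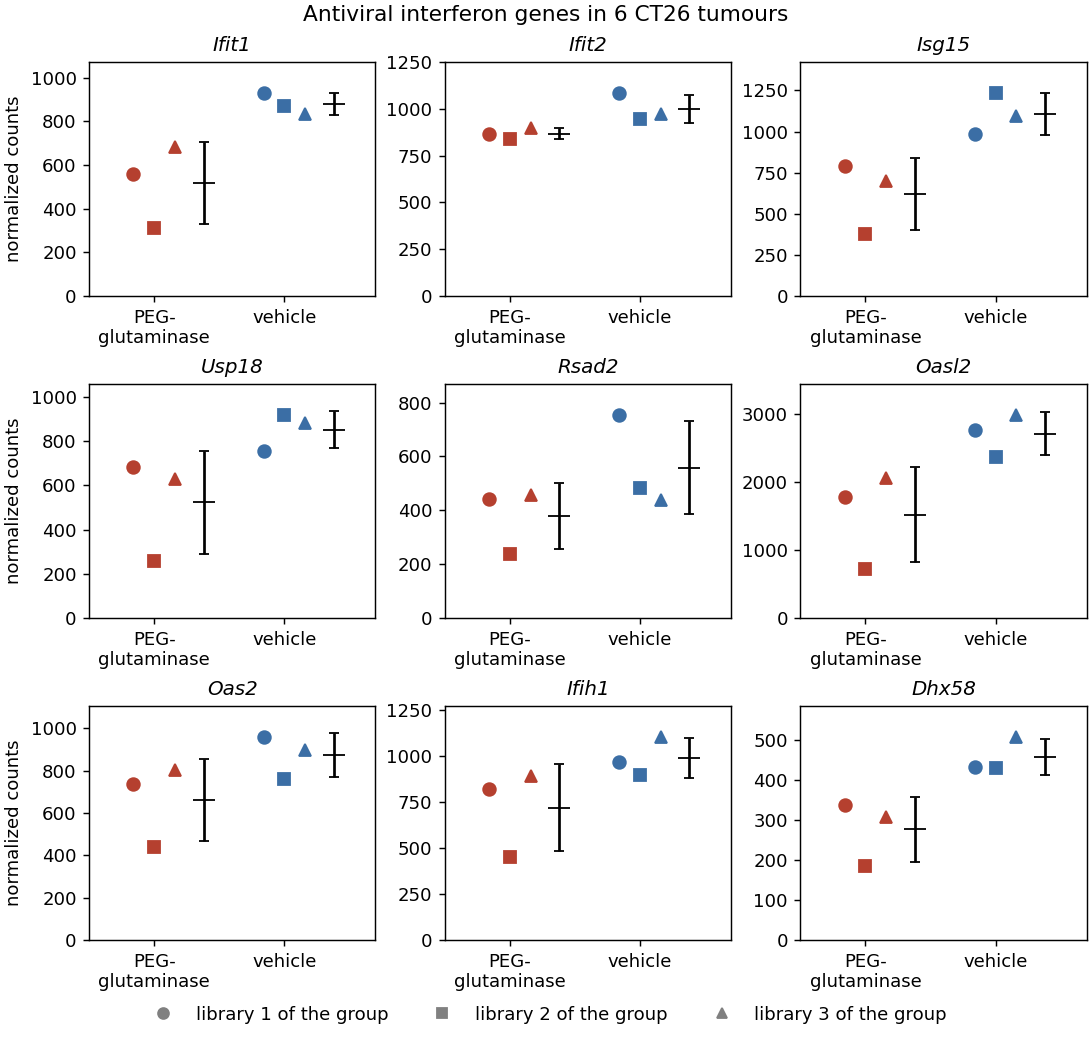
Normalized counts of the 9 measured genes in each tumour, with the mean and SD of each group (n = 3) as a bar beside the points. PEG-glutaminase tumours are red and stand left of the blue vehicle tumours; the square marks PEG-glutaminase 2, the lowest point in all 9 panels, and in Rsad2 and Oas2 the groups overlap.

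The Ifit genes lie next to each other on chromosome 19, and their proteins carry tetratricopeptide repeats that bind RNA. On GRCm38.p6 RefSeq places Ifit2 at chr19:34550550-34576534, Ifit3 at chr19:34583119-34588982, its copy Ifit3b at chr19:34607530-34613403 and Ifit1 at chr19:34640889-34650009. Ifit1, which recognises the cap structure of viral RNA, had 556, 312 and 681 normalized counts in PEG-glutaminase tumours 1, 2 and 3, against 931, 869 and 835 in vehicle tumours 1, 2 and 3. There was no overlap between the groups, and the 3 vehicle tumours lay close together while the PEG-glutaminase tumours spread widely. Its mean was 516 ± 188 in PEG-glutaminase tumours and 878 ± 48.8 in vehicle tumours (SD, n = 3 each), a log2 difference of -0.84 ± 0.29 (SE; limma, adjusted p = 0.223). By DESeq2 the difference was -0.77 ± 0.21 (SE, adjusted p = 0.0173), a call that was lost without PEG-glutaminase 1 or any single vehicle library. Without PEG-glutaminase 2 the limma difference was -0.51.

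Ifit2 followed another course from Ifit1. It had 868, 838 and 899 normalized counts in PEG-glutaminase tumours 1, 2 and 3, against 1088, 947 and 972 in vehicle tumours 1, 2 and 3. The groups did not overlap, but PEG-glutaminase 2 stood only slightly under the other treated tumours. The means were 869 ± 30.3 in PEG-glutaminase tumours and 1002 ± 75.1 in vehicle tumours (SD, n = 3 each). This is the smallest difference of the 9, -0.20 ± 0.09 (SE; limma, adjusted p = 0.244), with a 95% interval from -0.40 to -0.01. The level of Ifit1 divided by that of Ifit2 in the same library was 0.641, 0.372 and 0.757 in PEG-glutaminase tumours 1, 2 and 3, against 0.856, 0.918 and 0.859 in vehicle tumours 1, 2 and 3. This ratio did not overlap between the groups and was not tested.

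Ifit3, which forms a complex with other Ifit proteins, was listed at 0 in all 6 libraries. A count of 0 allows up to 3 reads, out of 16455052 to 18051480 reads in these libraries, by counting error only. It was not tested. The neighbouring copy Ifit3b had 3.11, 0.99 and 5.14 normalized counts in PEG-glutaminase tumours 1, 2 and 3, against 6.76, 7.85 and 9.81 in vehicle tumours 1, 2 and 3, which is under the minimum mean of 10 for testing. Ifit3 and Ifit3b share long stretches of sequence in the GENCODE M21 transcripts. Of the 50-base windows in the longest Ifit3 transcript, 51.2% also occur in a transcript of Ifit3b, and so do 31.7% of its 100-base windows. The remaining windows of Ifit3 occur in no other gene. The sources used here do not say how reads that match both copies, or that overlap other gene models, were counted. The level of Ifit3 RNA in these tumours therefore cannot be read from the table, and the cause of the 0 was not tested. The other members shared far less. Ifit1 shared 7.13% of its 50-base windows with other genes, nearly all with Ifit1bl2, Isg15 shared 3.96%, and the other 7 members shared 0%.

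Isg15 and Usp18, the protease that removes it, work on the same modification. Isg15 lies at chr4:156199424-156200818 and Usp18 at chr6:121245906-121270917 (GRCm38.p6). Isg15 had 789, 375 and 697 normalized counts in PEG-glutaminase tumours 1, 2 and 3, against 984, 1237 and 1095 in vehicle tumours 1, 2 and 3. Usp18 had 684, 256 and 628 normalized counts in PEG-glutaminase tumours 1, 2 and 3, against 757, 920 and 880 in vehicle tumours 1, 2 and 3. In both genes the groups did not overlap, vehicle 2 was the highest library and PEG-glutaminase 2 had the lowest level by a wide margin.

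The mean of Isg15 was 621 ± 217 in PEG-glutaminase tumours and 1105 ± 127 in vehicle tumours (SD, n = 3 each). Its difference was -0.90 ± 0.29 (SE; limma, adjusted p = 0.214) and, by DESeq2, -0.83 ± 0.21 (SE, adjusted p = 0.00748). Isg15 kept its DESeq2 call without any single PEG-glutaminase library and without vehicle 1, but not without vehicle 2 or vehicle 3. Usp18 averaged 523 ± 232 in PEG-glutaminase tumours and 852 ± 84.9 in vehicle tumours (SD, n = 3 each), a difference of -0.82 ± 0.41 (SE; limma, adjusted p = 0.349). Without PEG-glutaminase 2 the difference was -0.57 for Isg15 and -0.37 for Usp18. The ratio of Usp18 to Isg15 within a library overlapped between the groups, at 0.866, 0.683 and 0.900 in PEG-glutaminase tumours 1, 2 and 3, against 0.769, 0.744 and 0.804 in vehicle tumours 1, 2 and 3.

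The enzymes that attach Isg15 were all below 0 in their difference, 1 ligase by very little. Of the 4, limma called 0 (2 lower at an unadjusted p under 0.05), edgeR called 0 (2 lower unadjusted) and DESeq2 called 0 (3 lower unadjusted). Over all tested genes, the share lower at an unadjusted p under 0.05 was 9.51% by limma, 9.74% by edgeR and 8.96% by DESeq2. By limma, 1209 of the 13557 tested genes were higher at an unadjusted p under 0.05. After adjustment DESeq2 called 2.31% of genes lower, and it called 224 of 11967 genes higher. These shares and counts are the background for the lists below as well. Uba7, the activating enzyme, averaged 624 ± 180 normalized counts in PEG-glutaminase tumours and 864 ± 55.4 in vehicle tumours (SD, n = 3 each; limma, adjusted p = 0.247). Ube2l6, the conjugating enzyme, averaged 1569 ± 404 in PEG-glutaminase tumours and 2267 ± 324 in vehicle tumours (SD, n = 3 each; limma, adjusted p = 0.246). Herc6, a mouse Isg15 ligase, averaged 361 ± 120 in PEG-glutaminase tumours and 495 ± 58.0 in vehicle tumours (SD, n = 3 each; limma, adjusted p = 0.332). Trim25, a ligase that also acts on the RNA sensor RIG-I, had a log2 difference of -0.01 ± 0.10 (SE; limma, adjusted p = 0.971).

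Rsad2, at chr12:26442743-26456452, had vehicle 1 far above the other vehicle tumours. It had 441, 236 and 455 normalized counts in PEG-glutaminase tumours 1, 2 and 3, against 755, 484 and 437 in vehicle tumours 1, 2 and 3. The groups overlapped, since vehicle 3 lay under PEG-glutaminase 1 and 3, and vehicle 1 was above every other tumour. Vehicle 1 was the highest vehicle tumour for 4 of the 9 genes. The means were 377 ± 123 in PEG-glutaminase tumours and 558 ± 172 in vehicle tumours (SD, n = 3 each), a difference of -0.58 ± 0.33 (SE; limma, adjusted p = 0.391). Without vehicle 1 the difference was -0.34, without PEG-glutaminase 2 it was -0.28, and without both it was -0.04. Vehicle 1 is also the tumour with keratinocyte RNA: 9 skin markers summed to 67.3 to 72.5 normalized counts in the PEG-glutaminase tumours, against 8281 in vehicle 1 and 89.3 and 214 in vehicle 2 and 3. Their part in the Rsad2 level was not tested.

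The 2′-5′ oligoadenylate synthetase family gave the largest and 1 of the smaller differences. Its members Oasl2 and Oas2 lie at chr5:114896926-114912245 and chr5:120730333-120749886. Oasl2, a family member with ubiquitin-like domains, had 1772, 725 and 2059 normalized counts in PEG-glutaminase tumours 1, 2 and 3, against 2762, 2360 and 2986 in vehicle tumours 1, 2 and 3. The groups did not overlap, and PEG-glutaminase 2 had less than the other treated tumours, which stood under the vehicle range. Its means were 1518 ± 702 in PEG-glutaminase tumours and 2703 ± 317 in vehicle tumours (SD, n = 3 each), a difference of -0.96 ± 0.44 (SE; limma, adjusted p = 0.326), and -0.49 without PEG-glutaminase 2.

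Oas2, an enzymatically active synthetase, had 735, 440 and 804 normalized counts in PEG-glutaminase tumours 1, 2 and 3, against 961, 759 and 899 in vehicle tumours 1, 2 and 3. PEG-glutaminase 3 lay above vehicle 2, so the groups overlapped. The means were 660 ± 194 in PEG-glutaminase tumours and 873 ± 103 in vehicle tumours (SD, n = 3 each), a difference of -0.44 ± 0.24 (SE; limma, adjusted p = 0.354) that was -0.18 without PEG-glutaminase 2. The ratio of Oasl2 to Oas2 within a library was 2.41, 1.65 and 2.56 in PEG-glutaminase tumours 1, 2 and 3, against 2.87, 3.11 and 3.32 in vehicle tumours 1, 2 and 3, with no overlap and no test. Of the other synthetases, Oas3 stood at -0.72 ± 0.41 and Oasl1 at -0.37 ± 0.21 (log2 difference, SE; limma, adjusted p of 0.406 and 0.369). Oas1a had between 0 and 3.11 normalized counts in PEG-glutaminase tumours, against 1.96 to 8.69 in vehicle tumours, and was not tested.

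The sensors Ifih1 and Dhx58 act together on long double-stranded RNA, with Dhx58 aiding Ifih1. Ifih1 lies at chr2:62595618-62646255 and Dhx58 at chr11:100694884-100704271. Ifih1 had 820, 448 and 890 normalized counts in PEG-glutaminase tumours 1, 2 and 3, against 966, 896 and 1106 in vehicle tumours 1, 2 and 3. The groups did not overlap, but PEG-glutaminase 3 and vehicle 2 were almost level. The means were 720 ± 237 in PEG-glutaminase tumours and 989 ± 107 in vehicle tumours (SD, n = 3 each), a difference of -0.51 ± 0.27 (SE; limma, adjusted p = 0.359), and -0.21 without PEG-glutaminase 2.

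Dhx58 had the smallest p of the 9 genes. It had 337, 185 and 309 normalized counts in PEG-glutaminase tumours 1, 2 and 3, against 433, 430 and 509 in vehicle tumours 1, 2 and 3. No tumour of one group lay within the other, and this gene kept more of its difference without PEG-glutaminase 2 than Ifih1 did. The means were 277 ± 80.6 in PEG-glutaminase tumours and 457 ± 45.0 in vehicle tumours (SD, n = 3 each). The difference was -0.76 ± 0.22 (SE; limma, adjusted p = 0.154), -0.73 ± 0.21 by DESeq2 (SE, adjusted p = 0.0188), and -0.50 by limma without PEG-glutaminase 2. The DESeq2 call was lost without PEG-glutaminase 2 or any single vehicle library. The ratio of Dhx58 to Ifih1 was 0.410, 0.413 and 0.347 in PEG-glutaminase tumours 1, 2 and 3, against 0.448, 0.480 and 0.461 in vehicle tumours 1, 2 and 3, with no overlap and no test. In all, 6 such ratios were computed, with pairs picked knowing the levels of their genes, and 3 of them did not overlap between the groups. The share over other gene pairs was not computed, so this count has no background to be set against.

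**Figure D2:**
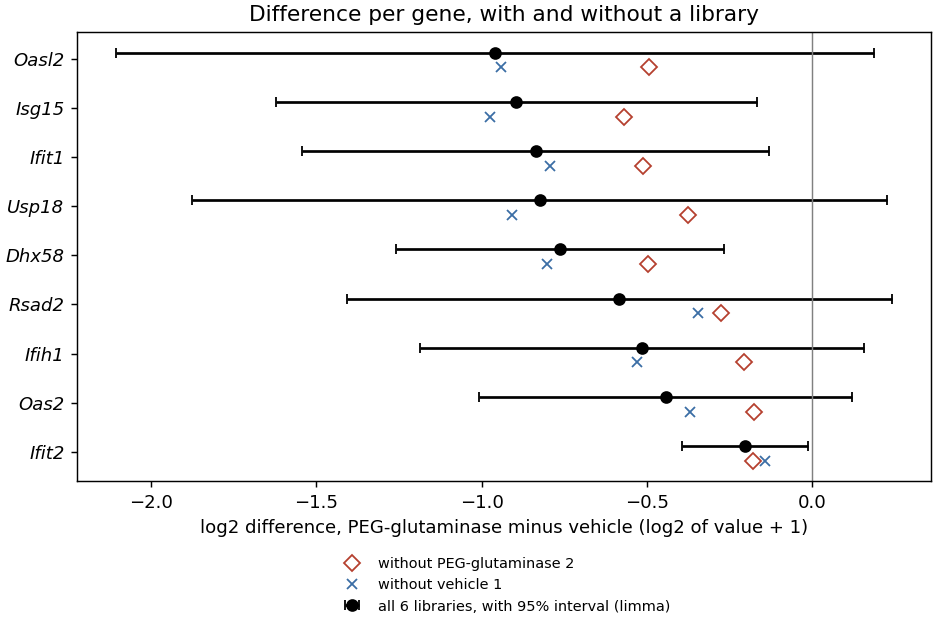
Log2 difference of each of the 9 genes (PEG-glutaminase minus vehicle) with its 95% interval from limma, as black points ordered by size; the red diamonds leave out PEG-glutaminase 2 and the blue crosses vehicle 1. Without PEG-glutaminase 2 the points lie between -0.57 and -0.18, and the intervals of Isg15, Ifit1, Dhx58 and Ifit2 lie below 0 before adjustment for the number of genes.

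Per kilobase of the longest transcript, the members covered a wide range of levels. In vehicle tumours the order was Isg15 at 1462 ± 168, Oasl2 at 865 ± 102, Usp18 at 481 ± 47.9 and Ifit1 at 331 ± 18.4 normalized counts per kilobase (SD, n = 3), and each of these neighbours lay apart beyond their SDs. Below them came Ifit2 at 262 ± 19.7, Oas2 at 220 ± 26.1, Dhx58 at 190 ± 18.7, Ifih1 at 181 ± 19.5 and Rsad2 at 133 ± 41.1, where the intervals of mean ± SD of each gene and the next overlapped. In PEG-glutaminase tumours Isg15 led at 821 ± 288, followed by Oasl2 at 486 ± 225, Usp18 at 295 ± 131 and Ifit2 at 227 ± 7.94, and Ifit1 at 194 ± 70.7 stood under Ifit2. The intervals of all neighbours overlapped in that group. Transcript lengths came from GENCODE M21 and not from the BALB/cJ models, so the levels per kilobase are approximate.

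**Figure D3:**
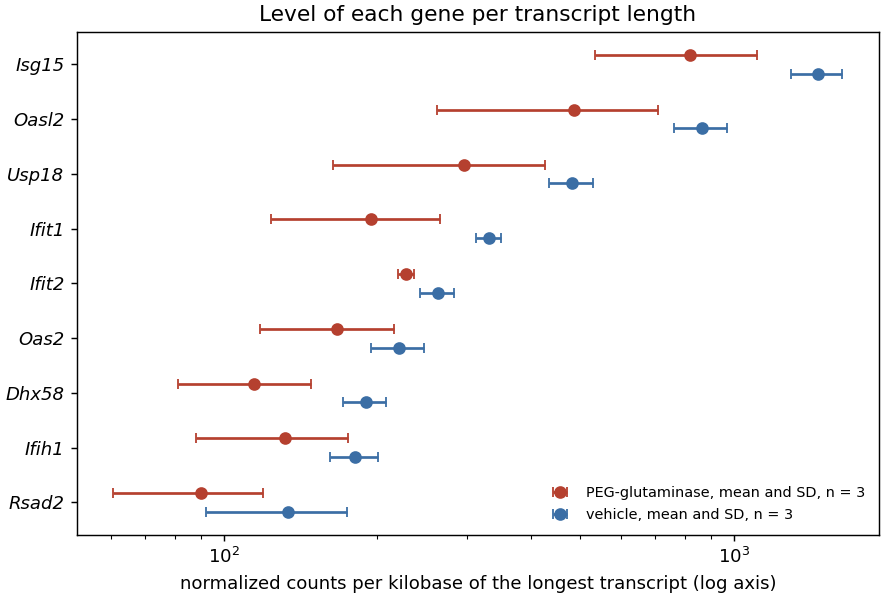
Normalized counts per kilobase of the longest transcript on a log axis, as the mean and SD of 3 tumours, with PEG-glutaminase in red above vehicle in blue for each gene. Isg15 is the highest in both groups, at 821 and 1462, and Ifit2 has the least distance between the groups.

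Across the 6 libraries the members followed each other, as a description over 6 tumours that include the difference between the groups. The 36 pairs of the 9 genes had a median Pearson correlation of 0.91 on the log2 scale. The pair most alike was Oasl2 and Ifih1 at 0.99, and the pair least alike was Ifit2 and Usp18 at 0.63. PEG-glutaminase 2 weighs on all of these values. Taken as deviations from the group means, the correlation of Ifit2 was 0.09 with Isg15, 0.18 with Usp18 and 0.25 with Dhx58. It was 0.82 with Rsad2. The non-members most like the mean of the standardised members, by Pearson correlation over the same 6 libraries, were Ces5a at 0.996, Slamf7 at 0.995, Cd274 at 0.994, Icos at 0.993 and Plekha4 at 0.992. Ces5a rests on 7 to 13 reads a library, and Slamf7 on 4 to 41, with 4 in PEG-glutaminase 2. Slamf7 encodes a receptor of activated lymphocytes, Icos a T cell costimulator and Cd274 the ligand PD-L1. Icos had 55.9, 14.8 and 63.8 normalized counts in PEG-glutaminase tumours 1, 2 and 3, against 120, 111 and 130 in vehicle tumours 1, 2 and 3.

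Other antiviral interferon-induced genes, a list without the 10, were also mostly lower, with PEG-glutaminase 2 at the bottom. Of 41 genes 38 were tested, limma and edgeR called 0 (23 and 25 lower at an unadjusted p under 0.05) and DESeq2 called 8 lower. Their median difference was -0.55, with 35 of 38 below 0, where 50.0% of all tested genes were. PEG-glutaminase 2 was the lowest library for 35 of them, where it was the lowest for 24.6% of all tested genes. The 4 of smallest p were Phf11d at -0.74 ± 0.20, Rtp4 at -0.99 ± 0.26, Mx1 at -0.62 ± 0.19 and Trim21, an antibody receptor of the cytosol, at -0.55 ± 0.17 (log2 difference, SE; limma, adjusted p of 0.153 to 0.165). The table labels Mx1, known for blocking influenza virus, as a polymorphic pseudogene. Eif2ak2, the double-stranded RNA kinase PKR, stood at -0.23 ± 0.09 (log2 difference, SE; limma, adjusted p = 0.238).

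Genes that sense nucleic acid and pass the signal on did not share one direction. Of 23 tested, limma, edgeR and DESeq2 called 0, 15 were below 0, and limma found 3 lower and 3 higher at an unadjusted p under 0.05 (edgeR 5 lower and DESeq2 4 lower). Rigi, the third sensor beside Ifih1 and Dhx58, had 1141, 701 and 1145 normalized counts in PEG-glutaminase tumours 1, 2 and 3, against 1304, 1111 and 1239 in vehicle tumours 1, 2 and 3, and its groups overlapped (log2 difference -0.32 ± 0.19, SE; limma, adjusted p = 0.399). Mavs, the mitochondrial adaptor of Rigi and Ifih1, averaged 1298 ± 56.0 in PEG-glutaminase tumours and 1077 ± 41.0 in vehicle tumours (SD, n = 3 each), higher without overlap but not called (0.27 ± 0.08, SE; limma, adjusted p = 0.149). Traf3, which acts below Mavs, stood at 0.27 ± 0.09, the endosomal RNA receptor Tlr3 at -0.39 ± 0.15 and its adaptor Ticam1 at -0.31 ± 0.12 (log2 difference, SE; limma, adjusted p of 0.170, 0.218 and 0.223). Irf7, a transcription factor that amplifies type I interferon, had 2545, 955 and 2531 normalized counts in PEG-glutaminase tumours 1, 2 and 3, against 3682, 3795 and 4285 in vehicle tumours 1, 2 and 3 (limma, adjusted p = 0.281).

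Of genes that clear nucleic acid, 7 were tested, with 4 below 0. limma and edgeR called 0 (by limma 1 lower, Samhd1, and 1 higher, Rnaseh2c, at an unadjusted p under 0.05, and the same genes by edgeR). DESeq2 called Samhd1, a nucleotide hydrolase, lower and no gene higher. By limma it stood at -0.43 ± 0.15, the ribonuclease H2 subunits Rnaseh2c and Rnaseh2b at 0.23 ± 0.10 and -0.11 ± 0.11 and the RNA editor Adar at -0.25 ± 0.12 (log2 difference, SE; adjusted p of 0.189 to 0.610).

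The transcription factors Irf9 and Stat2, parts of ISGF3, stood lower, and the receptor chains stood closer to 0. Of 12 tested ligands, receptors and signal carriers, limma and edgeR called 0 (4 lower each at an unadjusted p under 0.05), and DESeq2 called 3 lower, among them Irf9 and Stat2. Stat2 stood at -0.62 ± 0.22 and Irf9 at -0.59 ± 0.16 (log2 difference, SE; limma, adjusted p of 0.220 and 0.152). Ifnar1 stood at 0.01 ± 0.08 and Ifnar2 at -0.19 ± 0.11 (log2 difference, SE; limma, adjusted p of 0.974 and 0.366). Ifnb1, interferon beta, had 0, 0 and 2 reads in PEG-glutaminase tumours 1, 2 and 3, against 1, 2 and 1 reads in vehicle tumours 1, 2 and 3, too few to compare. Ifng, interferon gamma, had 20, 12 and 21 reads in PEG-glutaminase tumours 1, 2 and 3, against 38, 32 and 52 reads in vehicle tumours 1, 2 and 3 (limma, adjusted p = 0.153).

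Genes best known from interferon gamma had larger differences than the antiviral members by their medians, a comparison that was not tested. Of 17 tested, all were below 0 with a median of -0.96, limma and edgeR called 0 (14 and 16 lower at an unadjusted p under 0.05) and DESeq2 called 7 lower. The groups did not overlap in 16, where 12.7% of all tested genes were lower without overlap. Irf1 stood at -0.69 ± 0.17, Ciita, the switch of MHC class II, at -1.17 ± 0.32, the GTPase Irgm1 at -0.81 ± 0.21 and H2-Aa, a class II chain, at -1.50 ± 0.38 (log2 difference, SE; limma, adjusted p of 0.135 to 0.171). Without PEG-glutaminase 2 the median of this list was -0.68, against -0.37 for the 9 members.

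The summed markers of T and NK cells and of dendritic cells were lower in each PEG-glutaminase tumour than in any vehicle tumour. The 17 T and NK cell markers in the table were all below 0, and their summed level was 2394, 890 and 4724 normalized counts in PEG-glutaminase tumours 1, 2 and 3, against 5470, 6175 and 5514 in vehicle tumours 1, 2 and 3. None of them was at 0 in every library. PEG-glutaminase 2 was the lowest for 15 of the 17, where it was the lowest for 24.6% of all tested genes. The groups did not overlap in 8, where 12.7% of all tested genes were lower without overlap. For this list limma and edgeR called 0 (1 and 5 lower at an unadjusted p under 0.05) and DESeq2 called 1 lower. The 9 dendritic cell markers summed to 505 to 531 in PEG-glutaminase tumours and 722 to 824 in vehicle tumours. Here PEG-glutaminase 2 was the lowest for 2 of the 9, near the 24.6% of all tested genes. Of these 9, 7 were below 0, limma and edgeR called 0 (4 and 5 lower at an unadjusted p under 0.05) and DESeq2 called 2 lower, while Cd209a stood at 0.63 on the log2 scale. Plasmacytoid dendritic cells, a type known for making type I interferon, gave a sum of 6919 to 10107 over 8 markers in PEG-glutaminase tumours and 12101 to 12938 in vehicle tumours, and Klk1 was at 0. Of 7 tested, 6 were below 0, and limma and edgeR called 0 (by limma 3 lower and 1 higher at an unadjusted p under 0.05). DESeq2 called 1 lower and 1 higher, and the highest difference was 0.87 on the log2 scale. Among these markers, Bst2, which interferon itself induces, gave 2560 to 5251 in PEG-glutaminase tumours and 6194 to 7406 in vehicle tumours. Siglech, a defining marker of these cells, had 20.7, 36.6 and 21.6 in PEG-glutaminase tumours 1, 2 and 3, against 37.7, 16.7 and 38.3 in vehicle tumours 1, 2 and 3. The 12 macrophage markers summed to 32262 to 37394 in PEG-glutaminase tumours, within the 28859 to 41680 of vehicle tumours. Their sum holds differences of both signs: Mrc1, the mannose receptor, averaged 6239 ± 2358 in PEG-glutaminase tumours and 2283 ± 322 in vehicle tumours (SD, n = 3 each), higher without overlap (limma, adjusted p = 0.124; DESeq2, adjusted p = 0.00251). Of 11 tested macrophage markers 6 were below 0, and Mrc1 was the only one that DESeq2 called. The part of these cells in the levels of the antiviral genes was not tested.

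**Figure D4:**
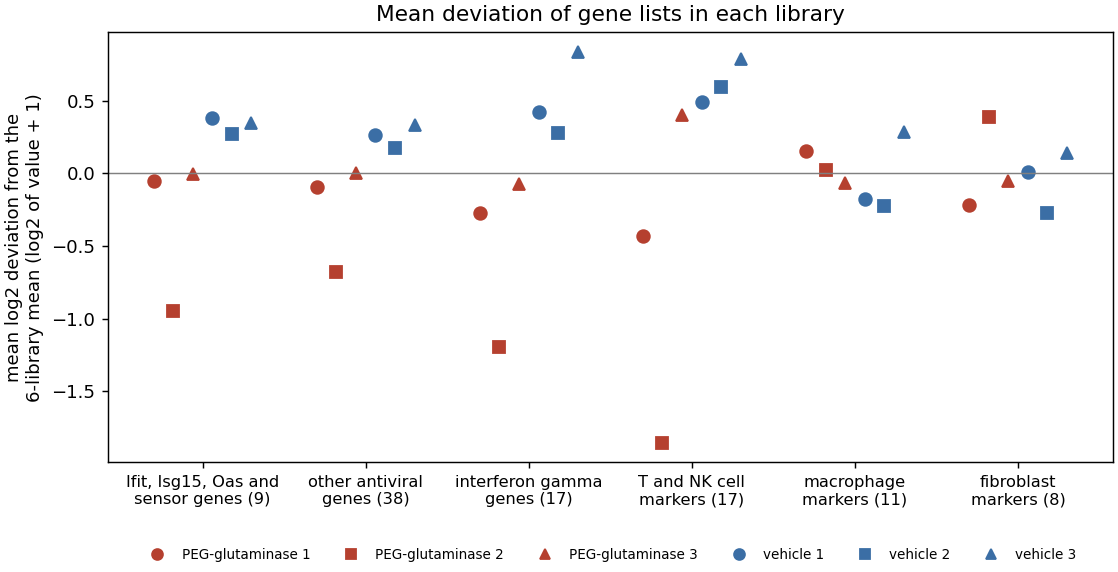
Mean log2 deviation of 6 gene lists from the mean over the 6 libraries, 1 point for each library, with the number of genes in brackets; PEG-glutaminase libraries are red and vehicle libraries blue. PEG-glutaminase 2 (red square) stands at -0.94 for the 9 members and -1.86 for T and NK cell markers, and at 0.39 for fibroblast markers.

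The other marker lists place the libraries. Fibroblast markers summed to 58824 to 74306 normalized counts in PEG-glutaminase tumours and 52225 to 70962 in vehicle tumours, with PEG-glutaminase 2 the highest of the 6. Endothelial markers summed to 3248, 4058 and 2980 in PEG-glutaminase tumours 1, 2 and 3, against 2880 to 2975 in vehicle tumours. Of 7 tested, 0 were below 0, limma and edgeR called 0 (by limma 2 higher at an unadjusted p under 0.05) and DESeq2 called 1 higher. Their median difference was 0.25, and -0.04 without PEG-glutaminase 2. Skeletal muscle markers summed to 135 to 1670 in PEG-glutaminase tumours, against 269 to 1098 in vehicle tumours. Neutrophil markers summed to 208 to 403 in PEG-glutaminase tumours and 282 to 368 in vehicle tumours, and B and plasma cell markers to 36.3 to 40.1, against 19.6 to 70.6. Markers of colon epithelium differed in sign. Of 6 tested, 4 were below 0, limma called 0 (3 lower and 1 higher at an unadjusted p under 0.05), edgeR called 0 (3 lower unadjusted) and DESeq2 called Krt20 lower. Krt20 had 2349 to 3652 normalized counts in PEG-glutaminase tumours and 4317 to 5226 in vehicle tumours, and Epcam had 2.07 to 7.92 in PEG-glutaminase tumours and 6.87 to 58.0 in vehicle tumours. Cdx2 stood at 1.26 ± 0.53 (log2 difference, SE; limma, adjusted p = 0.247). The recovered reads ran from 16455052 to 16791267 in PEG-glutaminase libraries and from 17380129 to 18051480 in vehicle libraries.

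The authors' deposited table gives its own comparison of the 2 treatments, in which 0 of the 9 genes pass an adjusted p of 0.05. In the authors' deposited table the log2 fold changes run from -0.55 for Isg15 to -0.09 for Ifit2, and the adjusted p-values from 0.288 for Dhx58 to 0.852 for Ifih1. These fold changes are closer to 0 than those computed here from the library columns for each of the 9 genes. The mean level in the authors' deposited table lies within 0.1% of the mean of the 6 library columns for 4.03% of the 13557 gene models compared, so the authors' values do not rest on these 6 columns as they stand. What else entered them is not stated.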

How the data were processed

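RNA was sequenced from 6 tumours, 3 per group, with groups and replicate numbers taken from the sample titles; the p-values measure the spread between mice. Per the labels' protocols, poly-A RNA was selected and copied from random hexamers. STAR, featureCounts, FastQC, DESeq and DESeq2 appear in the submitters' processing notes, without versions, strand setting or genome build. The deposited signal behaves as gene counts that the authors divided by 1 size factor per library, for BALB/cJ gene models. The same deposited table holds the authors' log2 fold changes, standard errors and Wald scores, and p-values. It has 40396 rows for 40303 models, each used once.

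Every library's non-zero values were whole multiples of its smallest within 0.01 of a read for 100% of values, so reads were recovered (for PEG-glutaminase 2, whose step is near 1, from the values alone). On these reads DESeq2 called 500 genes and edgeR 0. Models with a mean of at least 10 were tested on log2(value + 1) with limma 3.58.1 in R 4.3.3 (mean trend, robust, two-sided, Benjamini-Hochberg over 13557 models, threshold 0.05). edgeR 4.0.16 and DESeq2 1.42.0 on recovered reads were alternatives, with other pseudocounts, filters, TMM scaling, a replicate block and libraries left out; DESeq2 without single libraries was added after seeing the data. The tests were run on simulated counts, drawn gene by gene with no outlying library. That setting differs from these tumours, so it cannot decide between the 500 calls of DESeq2 and the 0 of edgeR. Libraries held 16455052 to 18051480 reads.

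The members and the gene lists were chosen with earlier results of these data known. All members are named, with the 4 genes of smallest p of each pathway list, partners set by name, and the 5 genes most alike, save for genes that are not reported here; Bst2, Siglech, Cd209a, Mrc1, Krt20, Epcam, Cdx2, Ifit3b and Ifit1bl2 were named after their values were seen. Symbols absent from the table (Ifi204, Skiv2l, Ifna5, Gbp4, Trbc1, Trbc2, Klrb1c, Dsg1a) gave no value. Sequences are from RefSeq (GRCm38.p6), lengths and shared windows from GENCODE M21.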

Additional observations from a re-analysis of the deposited data

How the results depend on the processing

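Every measured member stayed below 0 under every alternative run, and the median of the 9 lay between -0.93 and -0.37. limma and edgeR called 0 members under all of them (lowest adjusted p = 0.0823, without vehicle 1 and PEG-glutaminase 2), while DESeq2 called 3 with all libraries and 0 to 3 with 1 left out, at 0 without vehicle 2 or vehicle 3. Over all genes the 5 limma calls became 136 with no filter, 500 by DESeq2, 0 by edgeR (2554 at an unadjusted p under 0.05), 1 with the replicate block and 3 without vehicle 1 and PEG-glutaminase 2. Leaving out 1 library gave 0 to 25 limma calls, 0 of them without vehicle 1, vehicle 2 or PEG-glutaminase 1, 20 without PEG-glutaminase 2 and 25 without PEG-glutaminase 3; DESeq2 gave 252, 201 and 664 without PEG-glutaminase 1, 2 and 3, and 530, 193 and 319 without vehicle 1, 2 and 3. The cause was not tested. The replicate number is only a number: same-numbered tumours deviated with correlations of -0.22 to -0.13, and the replicate block called 0 members (7 lower at an unadjusted p under 0.05, where 1924 of 13557 genes were in either direction). With 3 tumours per group, intervals of single members were wide, up to that of Oasl2 from -2.11 to 0.19 (95%, log2).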

Other observations

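Rsad2 and Cmpk2, which encodes a nucleotide kinase of the same antiviral pathway, are neighbours on mouse chromosome 12 with 12664 bases and no other annotated gene between them (GRCm38.p6). Rsad2 divided by Cmpk2 within a library was 0.821, 0.739 and 0.773 in PEG-glutaminase tumours 1, 2 and 3, against 1.02, 0.578 and 0.576 in vehicle tumours 1, 2 and 3. Cmpk2 itself had 538, 319 and 588 normalized counts in PEG-glutaminase tumours 1, 2 and 3, against 744, 837 and 758 in vehicle tumours 1, 2 and 3, so the high level of vehicle 1 was seen in Rsad2 and not in its neighbour. The pair was picked after the Rsad2 values were seen, and the ratio was not tested. Trex1, a DNA exonuclease on the list of nucleic acid clearance, was listed at 0 in all 6 libraries, as Ifit3 was. How reads that match several genes or overlapping gene models were counted is not stated. The level of Trex1 RNA therefore cannot be read from these values, and the cause of the 0 was not tested.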
